A study of Arabidopsis thaliana with 3 samples.

Results

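The ddb2-3 library was compared with the WT library, 1 library each, over 4481 distinct regions of differential DNA methylation in Arabidopsis thaliana. The value of a region was its level of 24-nt small RNAs in RPM, reads scaled to a library of the same nominal size. All regions of the 6 deposited classes were pooled, and those with the same chromosome, start and end were counted once, so that 2 of the 3 libraries of the series and every region in them were used. The classes combine a cytosine context, CG, CHG or CHH (H stands for A, C or T), with a direction, hyper or hypo. The libraries were made from total RNA of seedlings grown in vitro for 10 days, of ddb2-3 (DsLoxHs195_05H) and of WT (Col). Each genotype is 1 line, so any other change carried by the ddb2-3 line would be part of its values. The remaining library, from nrpd1a (Salk_583051) seedlings, was used only to show which regions kept reads when the largest subunit of RNA polymerase IV is mutated. Whole seedlings were taken, and the tables hold no gene expression, so neither a cell type nor the loss of DDB2 transcript could be checked in them. Which methylomes were set against each other to call the regions hyper or hypo is not given in the sources used here. With 1 library per genotype no difference below has a replicate check, and an interval on reads speaks only of the pair of libraries.

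DDB2 is a damage sensor of global genome repair, the branch of nucleotide excision repair that scans the whole genome for lesions such as those made by ultraviolet light. It works with DDB1 and the CUL4 ubiquitin ligase. In plants, 24-nt small interfering RNAs guide DNA methylation to transposons: RNA polymerase IV makes the precursors, RDR2 makes them double-stranded, DCL3 cuts them, and AGO4 carries the 24-nt product to chromatin, where DRM2 methylates cytosines in all contexts. MET1 maintains CG methylation and CMT3 CHG methylation, while ROS1 and its relatives remove it. Large retrotransposons of the Gypsy type, among them the ATHILA families, lie mainly around the centromeres, and Helitrons, which move by rolling-circle replication, also lie in the chromosome arms.

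The sequences of 7 regions are shown because they carry the extremes of the comparison. They were read from the plus strand of RefSeq's copy of the TAIR10 genome (TAIR10.1), 5′ to 3′, at the coordinates of the deposited regions. The first 3 regions had 0, 0 and 3 reads in ddb2-3, against 365, 261 and 52 in WT. ATREP11 (chr2:14653601-14653800) and ATREP1 (chr2:13702401-13702600) are CHG-hypo Helitron regions, in which capitals mark CHG sites (CAG, CTG, CCG and CGG, the last being CCG on the other strand). TA11 (chr1:10363101-10363200) is a CG-hypo part of a LINE retrotransposon, with its CG sites in capitals. The next 2 regions, higher in ddb2-3, lie in coding exons. LCR26 (chr4:14432740-14432900, CHG-hyper, CHG sites in capitals) has 160 of its 161 bases in coding sequence of that gene, which is on the minus strand, and AT2G15340 (chr2:6677501-6677700, CG-hyper, CG sites in capitals) has 198 of 200. The last 2, ATCOPIA68 (chr1:16673531-16673695) and ATDNAI27T9C (chr3:14254401-14254500), stand for the regions with long GA repeats, which are in capitals.
ATREP11: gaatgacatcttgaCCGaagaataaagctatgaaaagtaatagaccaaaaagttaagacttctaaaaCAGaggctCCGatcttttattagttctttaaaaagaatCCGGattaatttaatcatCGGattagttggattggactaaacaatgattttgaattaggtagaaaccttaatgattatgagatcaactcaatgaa
ATREP1: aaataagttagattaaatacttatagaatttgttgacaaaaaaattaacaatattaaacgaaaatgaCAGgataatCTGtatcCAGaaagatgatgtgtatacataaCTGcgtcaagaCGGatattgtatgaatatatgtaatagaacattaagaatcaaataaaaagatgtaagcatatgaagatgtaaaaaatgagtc
TA11: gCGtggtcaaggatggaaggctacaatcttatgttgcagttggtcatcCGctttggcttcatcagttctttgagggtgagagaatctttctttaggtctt
LCR26: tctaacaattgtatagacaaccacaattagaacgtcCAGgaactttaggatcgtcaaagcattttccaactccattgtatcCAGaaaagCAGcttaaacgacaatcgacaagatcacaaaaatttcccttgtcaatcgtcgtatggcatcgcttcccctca
AT2G15340: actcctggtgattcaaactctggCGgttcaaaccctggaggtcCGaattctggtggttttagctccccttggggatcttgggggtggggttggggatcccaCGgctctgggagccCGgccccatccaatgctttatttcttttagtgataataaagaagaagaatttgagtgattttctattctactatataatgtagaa
ATCOPIA68: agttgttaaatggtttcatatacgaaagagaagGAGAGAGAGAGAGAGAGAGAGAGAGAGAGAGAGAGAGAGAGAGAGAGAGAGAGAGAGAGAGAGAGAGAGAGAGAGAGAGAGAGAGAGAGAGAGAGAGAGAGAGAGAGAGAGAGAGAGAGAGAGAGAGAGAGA
ATDNAI27T9C: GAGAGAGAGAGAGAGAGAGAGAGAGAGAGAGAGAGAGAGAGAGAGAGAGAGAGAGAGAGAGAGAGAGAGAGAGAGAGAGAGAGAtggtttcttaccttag

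Most regions had similar levels in both libraries. The mean level was 20.8 RPM in ddb2-3 and 19.1 RPM in WT, and the log2 ratio of the summed levels was 0.13 (95% interval 0.12 to 0.13). Of the 4481 regions, 4480 had at least 1 RPM in at least 1 of these libraries. Over them the median difference of log2(RPM + 1), ddb2-3 minus WT, was 0.17, and the middle 50% of regions lay between -0.15 and 0.51. Differences on this scale understate those of weakly covered regions. The libraries lay within 1.5-fold of each other in 3299 regions (73.6%). By a size rule of 2-fold on this scale, 234 regions were higher in ddb2-3 (5.22% of those measured) and 75 were lower (1.67%). Among regions with reads in both libraries the median log2 ratio was 0.20. Relative to a region at that median, called the median region below, the summed ratio turned to -0.07 and the counts became 134 higher and 91 lower, and every log2 ratio of summed levels given below that lies between 0 and 0.20 is below 0 on that scale. At 4-fold, 11 regions were higher (0.246%) and 21 lower (0.469%). After regions within 200 bp of each other were joined into 4100 loci, 227 loci held a higher region and 62 a lower one, and 0 held both.

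**Figure D1:**
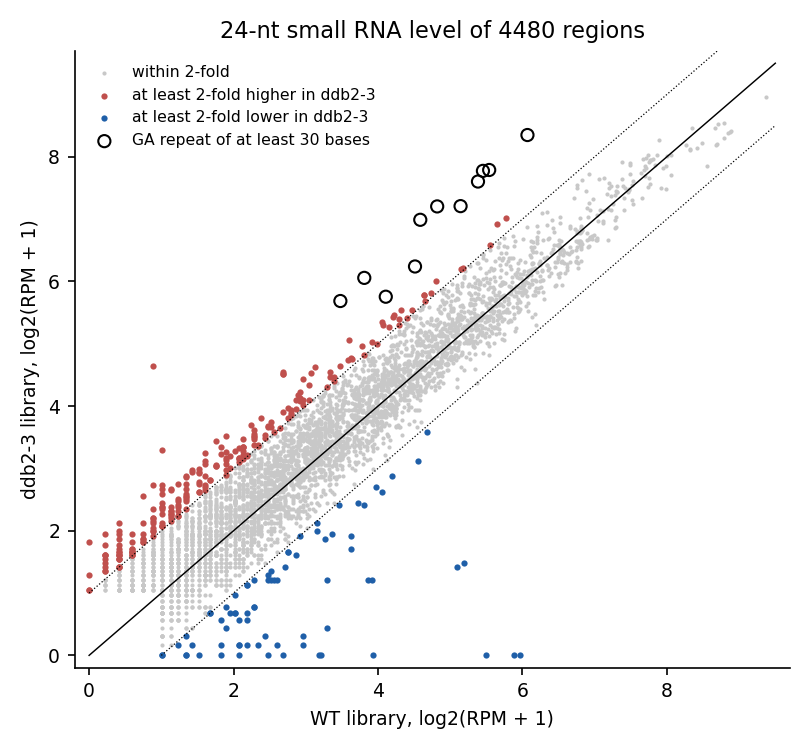
Level of each of the 4480 regions in ddb2-3 (vertical axis) and WT (horizontal axis), both as log2(RPM + 1), with 1 point per region, a solid line at equality and dotted lines at 2-fold. Most points lie between the dotted lines, the 75 lower regions reach down to 0 reads in ddb2-3, and the 11 regions with a GA repeat of at least 30 bases (circles) all lie above the upper line.

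The higher and the lower regions differed in kind. Of the 234 higher regions, 108 (46.2%) were Gypsy elements, against 27.7% of all regions measured, and 74.8% lay within 3 Mb of a centromere midpoint, called pericentromeric below, against 59.6% of all. Of the 75 lower regions, 36 (48.0%) were Helitrons, against 26.0% of all, and 52 (69.3%) lay in the arms, against 40.4% of all. Hypo classes held 62 of the 75 lower regions (82.7%) and 32.6% of all regions. Within 2 kb upstream of a gene lay 33 of the 75 lower regions (44.0%), upstream of 26 genes, and 24.5% of all. The nrpd1a library had no read in 213 of the 234 higher (91.0%), 62 of the 75 lower (82.7%) and 3453 of all 4480 regions (77.1%). A count of 0 in that shallow library allows up to 2.18 RPM, and the median higher region had 2.11 RPM in WT.

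The lower regions were mostly single-copy sequence. In 54 of the 75 (72.0%) at least 90% of the 24-mers occur once in the genome, as they do in 773 of the 4480 regions (17.3%) and in 50 of the 234 higher regions (21.4%). Of the lower regions, 58 had under 10 RPM in both libraries. The other 17 reached 10 RPM in ddb2-3 or WT, as did 2064 of all 4480 regions. The median lower region had 0.599 RPM in ddb2-3 and 4.73 RPM in WT.

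The 10 lowest loci were an ATREP11, an ATREP1 and an ATREP4 Helitron, a HELITRONY3 Helitron, a TA11 and an ATLINE1_6 LINE element, an ATCOPIA23 Copia element, and coding exons of AT4G16195, AT5G21125 and AT5G39493. The ATREP11 region shown above, 357 bp upstream of AT2G34730, a gene for a myosin heavy chain-like protein, had 0 reads in ddb2-3, against 365 reads (61.7 RPM) in WT. At a floor of 3 reads for the library without reads, its level was at least 172-fold lower in ddb2-3. ATREP1, 1468 bp upstream of the zinc transporter gene ZIP3, had 0 reads in ddb2-3, against 261 reads (44.1 RPM) in WT, at least 123-fold lower. Both regions were thus empty in 1 library and well covered in the other. ATREP4 (chr3:8785001-8785300), 1389 bp upstream of the glycine-rich protein gene AT3G24250, had 0 reads in ddb2-3, against 49 in WT. The TA11 region of 258 bp that holds the sequence shown (chr1:10363101-10363358) lies in the transposon gene AT1G29650 and had 15 reads in ddb2-3, against 211 in WT. ATLINE1_6 (chr2:2273601-2274110), 1149 bp upstream of the subtilase gene AT2G05920, had 11 reads in ddb2-3 and 83 reads in WT, 10.6-fold lower (5.65 to 22.2). ATCOPIA23 (chr3:22232501-22232700) had 1 read in ddb2-3 and 40 reads in WT, and HELITRONY3 (chr2:1002201-1002300) had 2 reads in ddb2-3 and 40 reads in WT, 28.2-fold lower (7.32 to 241). In these loci the nrpd1a library had from 0 to 2 reads.

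The loci next to these 10 were mostly within 2-fold, as were most regions. Of the 20 neighbouring loci on either side of the 10, the nearest 3800 bp away, 1 was past 2-fold, and the others lay between -0.64 and 0.63. Of all regions 5.22% were higher and 1.67% lower. The neighbour past 2-fold was a coding exon of the F-box gene AT5G39490, with 1.32 RPM in ddb2-3 and 4.57 RPM in WT, next to AT5G39493. Of the 20 neighbours of the 10 highest loci 0 were past 2-fold. Most other copies of the same families were within 2-fold of WT, but in some families lower ones were more frequent than the 1.67% of all regions. With the loci named above included, 4 of 25 ATLINE1_6 regions (16.0%) and 3 of 26 ATREP4 regions (11.5%) were lower. Both families were looked at because they hold one of the 10 lowest loci, so these shares are raised by the choice. Among 58 other ATREP11 regions 0 were higher and 3 lower, with a median difference of 0.14. Among 77 other ATREP1 regions 1 was higher and 1 lower, and among 114 other HELITRONY3 regions 1 was higher and 0 were lower. The 14 other TA11 regions included 2 lower ones and had a median of 0.02.

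Along the chromosomes, loci past 2-fold in the same direction rarely stood in a row. There were 0 runs of 4 or more loci. Among runs of at least 3, 3 were higher and 0 lower, and all 3 consisted of ATHILA elements, on chromosomes 2 (chr2:3770001-3822700), 3 (chr3:13651201-13662200) and 4 (chr4:4406532-4411700). The run on chromosome 3 held 3 ATHILA6A loci with differences of 1.11, 1.45 and 1.15. Of runs of at least 2 loci, 19 were higher and 1 lower. Higher loci were also more frequent, with 227 of the 4100 loci holding a higher region and 62 a lower one.

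Coding exons of protein-coding genes held 232 regions in 204 genes, of which 27 were higher (11.6%) and 12 lower (5.17%) in ddb2-3, against 5.22% and 1.67% of all regions. The median coding exon region had 81.9% unique 24-mers. Among regions with over 90% unique 24-mers 6.48% were higher and 6.99% lower, so the lower share of coding exons was not above that of largely single-copy regions. LCR26, a gene for a small cysteine-rich protein of the defensin-like kind, had the highest difference of all loci, 3.75. Its region held 199 reads (23.8 RPM) in ddb2-3 and 5 reads (0.845 RPM) in WT, and all of its 24-mers are unique. The nearest locus, 3400 bp away at the related gene LCR25, had 10.5 RPM in ddb2-3 and 8.96 RPM in WT. The F-box gene AT1G32140 (chr1:11564701-11564800) had 74 reads (8.87 RPM) in ddb2-3 and 6 reads (1.01 RPM) in WT, 8.74-fold higher (3.83 to 24.6). AT4G13992, a gene for a C1 domain protein (chr4:8087801-8088300), had 47 reads in ddb2-3 and 5 reads in WT, 6.66-fold higher (2.66 to 21.5). AT1G65990, annotated as related to type 2 peroxiredoxins (chr1:24572101-24572700), had 183 reads (21.9 RPM) in ddb2-3 and 32 reads (5.41 RPM) in WT. The glycine-rich protein gene AT2G15340 had 3 overlapping regions in the CG, CHG and CHH hyper classes, with differences of 1.83, 1.87 and 1.10. All of these gene regions had 0 or 1 read in nrpd1a. In that library 1 read was worth 0.727 RPM and a count of 0 allows up to 2.18 RPM. That limit is above the WT levels of LCR26 and AT1G32140, so a loss of reads from WT could not be seen there.

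Lower coding exons had few reads in either library. AT4G16195 (chr4:9173301-9173600) and AT5G39493 (chr5:15810501-15810600), both of the plant self-incompatibility protein S1 family, had 0 and 1 reads in ddb2-3, against 32 and 24 reads in WT. Of the 8 coding exon regions of that family these 2 were the only ones past 2-fold, and the family's median difference was -0.24. AT5G21125 (chr5:7185301-7185400), a gene for an uncharacterized protein, had 0 reads in ddb2-3 and 27 reads in WT. GH9B14, a glycosyl hydrolase gene (chr4:6144201-6144600), had 0 reads in ddb2-3 and 15 reads in WT, and RPL5B, a ribosomal protein gene (chr5:15904801-15904900), had 1 read in ddb2-3 and 15 reads in WT. AT4G00580, which encodes a protein similar to a COP1-interacting protein (chr4:249201-249400), had 0 reads in ddb2-3 and 11 reads in WT. The S1 family was picked out after its values were seen.

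Few regions were empty in 1 library and covered by at least 10 reads in the other. There were 11 such regions, in 8 loci, without a read in ddb2-3, and 2 without a read in WT. ATHPOGON1, a Pogo element (chr1:21105401-21105600), had 21 reads in ddb2-3 and 0 in WT, at least 4.96-fold higher. ATHILA5 in AT3G42386 (chr3:14514501-14514596) had 12 reads in ddb2-3 and 0 in WT, at least 2.83-fold higher.

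Regions with long GA repeats were higher in ddb2-3. A run of at least 6 GA or CT units, read on either strand, occurred in 28 regions (0.625%), and in 9 of the 3543 regions of 100 bp (0.254%). Over the 28 regions the mean level was 80.0 RPM in ddb2-3 and 28.4 RPM in WT, a log2 ratio of summed levels of 1.49 (1.45 to 1.54), with 15 regions higher and 0 lower. In 11 regions at 10 loci the run was 36 to 180 bases long, and all 11 were higher, between 3.26-fold and 5.48-fold. Of the other 17, with runs under 30 bases, 4 were higher, 1 had under 1 RPM in both libraries, and the log2 ratio of summed levels was 0.45. The limit of 30 bases was set after the values were seen. These repeats made up 9 of the 11 regions at least 4-fold higher. The sequence of ATDNAI27T9C printed above, 132 bp upstream of AT3G42060, had 1051 reads (126 RPM) in ddb2-3 and 136 reads (23.0 RPM) in WT. ATCOPIA68, in an intron of the auxin response factor gene ARF23, had 1817 reads (218 RPM) in ddb2-3 and 253 reads (42.8 RPM) in WT. VANDAL17, in an intron of ARF14, another auxin response factor gene (chr1:13108901-13109000), had 547 reads in ddb2-3 and 77 reads in WT, 5.03-fold higher (3.96 to 6.48). HARBINGER (chr2:1803532-1803765), 3060 bp from LHCB2.2, a gene for a light-harvesting protein, had 1225 reads in ddb2-3 and 203 reads in WT. ATENSPM5 (chr1:15645800-15645900), with a run of 36 bases, had 421 reads in ddb2-3 and 60 reads in WT. By contrast ARF22 (chr1:12556201-12556400), with a run of 26 bases, had 450 reads in ddb2-3 and 369 reads in WT, a ratio of 0.864 (0.751 to 0.994). In each of the 11 regions with long runs nrpd1a had 0 or 1 read. In these 11 regions 15.6% to 55.1% of the 24-mers are unique, and a GA 24-mer occurs at many places of the genome, so the regions may share reads and are not separate observations.

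**Figure D2:**
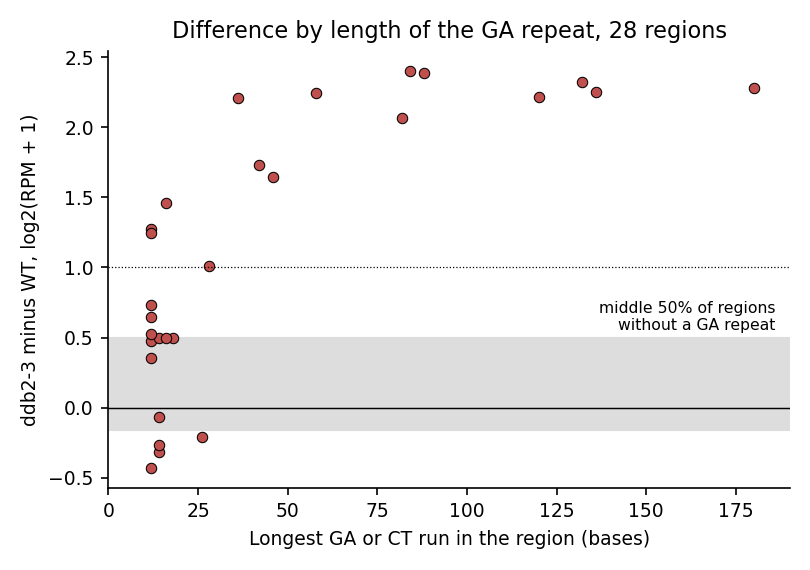
Difference between libraries, log2(RPM + 1) in ddb2-3 minus WT, against the length in bases of the longest GA or CT run, for the 28 regions with such a run, with 1 point per region. The grey band is the middle 50% of regions without a run and the dotted line marks 2-fold. All 11 regions with runs of 36 bases or more lie at 1.65 or above, and the 17 with shorter runs lie on both sides of 0.

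Among the classes, hypo and hyper regions lay farther apart in single-copy sequence than in repeated sequence in all 3 contexts. Of the 48 CG-hypo regions, 28 had at least 90% unique 24-mers. These averaged 1.47 RPM in ddb2-3 and 4.67 RPM in WT, a log2 ratio of summed levels of -1.67 (-1.85 to -1.48), with 0 regions higher and 19 lower. The other 20 CG-hypo regions averaged 4.52 RPM in ddb2-3 and 4.18 RPM in WT, a log2 ratio of 0.11 (-0.05 to 0.28), with 2 higher and 3 lower. Largely unique CG-hyper regions numbered 7, with 4 of them higher and 1 lower, at a summed log2 ratio of 1.21, and of the other 26, 4 were higher and 0 lower, at 0.60. The median difference of the 28 largely unique CG-hypo regions was -1.41. Of 200 largely unique CHG-hypo regions 10 were higher and 32 lower, at a summed log2 ratio of -0.22, but their median difference was 0.0020, and of the other 508, 29 were higher and 2 lower, at 0.28. Among CHG-hyper regions, 26 of 259 largely unique ones were higher and 1 was lower, at 0.43, and 76 of the other 1030 were higher and 2 lower, at 0.37. For CHH-hyper the sums were 0.15 and 0.08, which turned to -0.05 and -0.12 relative to the median region, and for CHH-hypo they were -0.15 and -0.02.

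Within each class, pericentromeric regions had higher medians than arm regions. In the arms the CG-hypo median was -1.15 over 26 regions, and near the centromeres it was -0.39 over 22. CHG-hypo medians were -0.10 in the arms and 0.35 near the centromeres, and CHG-hyper medians were 0.13 and 0.39. In the CHH classes the medians lay between -0.06 and 0.22. Regions in hypo and hyper classes differed in GC content as well, with a median of 34.2% in CG-hypo, 41.0% in CG-hyper, 41.5% in CHG-hypo, 43.0% in CHG-hyper, 29.5% in CHH-hypo and 31.0% in CHH-hyper.

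**Figure D3:**
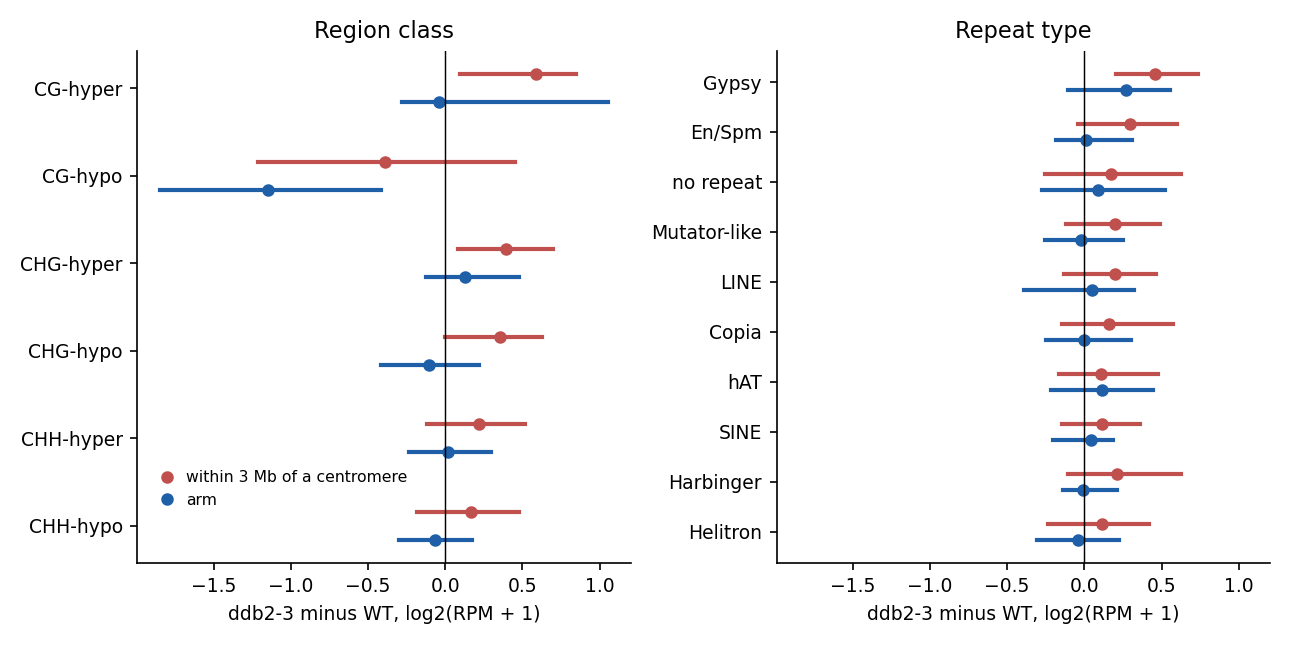
Median (points) and middle 50% of regions (bars) of the difference ddb2-3 minus WT on the log2(RPM + 1) scale, by region class (left) and repeat type (right), for regions within 3 Mb of a centromere midpoint (red) and in the arms (blue). CG-hypo regions of the arms lie lowest at -1.15, and pericentromeric medians lie above arm medians in all 6 classes and in all types shown except hAT, where both are 0.11.

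By repeat type, pericentromeric Gypsy elements had summed levels above WT on all 5 chromosomes. The pericentromeric Gypsy regions of chromosomes 1 to 5 had log2 ratios of summed levels of 0.57, 0.36, 0.50, 0.45 and 0.52, and of 1189 such regions 105 were higher and 0 lower. Relative to the median region these sums were 0.16 to 0.37. The 51 Gypsy regions of the arms had a sum of 0.15, which was -0.05 relative to the median region. Outside the ATHILA group, ATGP2 had a sum of 0.41 over 20 regions and ATLANTYS1 one of 0.36 over 71. Relative to the median region these were 0.22 and 0.16. ATLANTYS2 had -0.01 over 35 regions and ATGP1 0.17 over 144, which were -0.21 and -0.03 relative to the median region. The 94 largely unique Gypsy regions averaged 3.97 RPM in ddb2-3 and 2.91 RPM in WT, at 0.45 (0.36 to 0.54), with 10 higher and 0 lower, and the other 1146 had 0.47. All 10 ATHILA families with at least 20 regions had sums above 0, between 0.38 and 0.70. Within the ATHILA2 family the sum was 0.20 over 30 regions of 30% to 35% GC, 0.60 over 64 regions of 35% to 40%, 0.59 over 82 of 40% to 45% and 0.69 over 130 regions above 45%. In the same bands the ATHILA6A family had 0.63, 0.68, 0.59 and 0.75, over 10, 28, 42 and 71 regions, with no such step between its bands. In ATGP1 the sum was -0.08 over 14 regions of 30% to 35% GC and 0.29 over 87 above 45%. The Gypsy locus with the highest difference was an ATHILA2 element (chr3:14821501-14821600) with 41 reads in ddb2-3 and 4 reads in WT. The lowest was ATGP2 in AT2G01034 (chr2:45501-45600), with 4 reads in ddb2-3 and 15 reads in WT.

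Helitrons as a group had a summed log2 ratio of -0.04. It was -0.07 over 736 regions in the arms and 0.04 (0.02 to 0.06) over 432 pericentromeric regions. By chromosome the Helitron sum was 0.01 on chromosome 1 and between -0.08 and -0.03 on the other 4, and it was below 0 on all 5 relative to the median region. Of 163 largely unique Helitron regions 2 were higher and 26 lower, at a sum of -0.23 (-0.28 to -0.19), and of the other 1005, 12 were higher and 10 lower, at -0.03. Of all 773 largely unique regions, Helitrons included, 50 were higher and 54 lower. ATREP18, with a median GC content of 36.0%, had the highest sum among the Helitron families of at least 20 regions, 0.40 (0.33 to 0.47) over 62 regions, and ATREP10B, at 24.0% GC, had -0.30 (-0.34 to -0.25) over 25. LINE elements had 6 higher (3.97%) and 11 lower (7.28%) regions of 151. The median LINE region had 100% unique 24-mers, and of all regions with over 90% unique 24-mers 6.48% were higher and 6.99% lower. En/Spm elements had 9 higher (7.96%) and 0 lower of 113 regions. Of all regions 5.22% were higher and 1.67% lower. The highest LINE locus was ATLINE1_4 in AT2G45230 (chr2:18655301-18655400), with 47 reads in ddb2-3 and 6 reads in WT. TNAT1A, a family of low GC content (27.0%), had a sum of 0.49 (0.39 to 0.59) over 23 regions, and the DNA transposon family SIMPLEHAT1 had -0.34 (-0.43 to -0.24) over 24. The Mutator-like sum of 0.07 turned to -0.13 relative to the median region.

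Levels in ddb2-3 were highest relative to WT next to the centromeres. Within 0.5 Mb of the midpoint the 513 regions averaged 20.5 RPM in ddb2-3 and 14.3 RPM in WT, a log2 ratio of summed levels of 0.52 (0.51 to 0.54), with 55 regions higher and 0 lower. The sums were 0.44 from 0.5 to 1 Mb, 0.29 from 1 to 1.5 Mb, 0.24 from 1.5 to 2 Mb and 0.09 from 2 to 3 Mb. Beyond 3 Mb they lay between -0.07 and -0.03. Relative to the median region the sum was 0.32 within 0.5 Mb and turned negative, to -0.11, from 2 Mb on. The arms of every chromosome had a sum below 0, between -0.08 and -0.02, and the pericentromeric regions of every chromosome one above 0, between 0.26 and 0.37, or between 0.06 and 0.17 relative to the median region. Outside the Gypsy elements the sum was 0.16 within 0.5 Mb, 0.33 from 0.5 to 1 Mb, 0.04 from 2 to 3 Mb and -0.07 from 10 to 16 Mb.

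**Figure D4:**
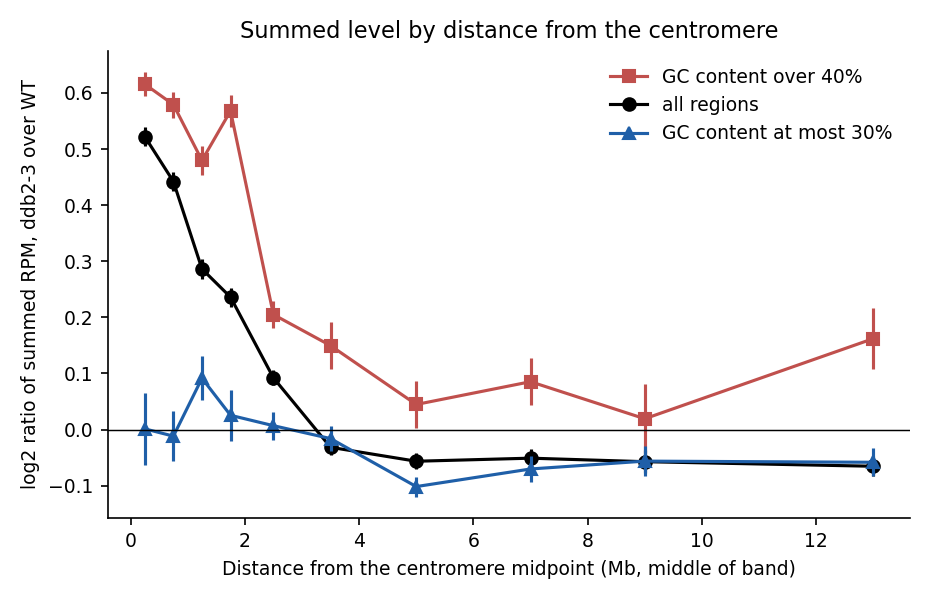
Log2 ratio of summed RPM, ddb2-3 over WT, against distance from the centromere midpoint in Mb, for all regions (black circles), those of over 40% GC (red squares) and those of at most 30% GC (blue triangles), with 1 point per band of distance and 95% counting intervals as vertical lines. In all regions the ratio is 0.52 nearest the centromere and -0.07 in the outermost band, and in regions of at most 30% GC it lies between -0.10 and 0.09 throughout.

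GC content went with the same differences. The summed log2 ratio was -0.04 in 1411 regions of at most 30% GC, -0.02 from 30% to 35%, 0.15 from 35% to 40%, 0.29 from 40% to 45% and 0.51 (0.50 to 0.53) in 921 regions above 45%. Relative to the median region the first 3 were below 0, at -0.24, -0.22 and -0.05. In pericentromeric regions the sums of the same bands were 0.02, 0.08, 0.26, 0.38 and 0.57, and in the arms -0.07, -0.09, -0.06, 0.05 and 0.17. Among regions of over 40% GC the sum was 0.62 within 0.5 Mb of the midpoint and 0.16 from 10 to 16 Mb. Among regions of at most 30% GC these sums were 0.00 and -0.06. Mutator-like elements had -0.06 at most 30% GC and 0.45 above 45%. Among the Mutator-like families VANDAL21 had a sum of 1.36 over 24 regions but a median difference of 0.39. The sums by GC content and by distance include the regions with GA runs, and band sums without them were not computed. Over all regions the median difference was -0.01 at most 30% GC and 0.41 above 45%. When each region was taken relative to the median of its own of 10 GC bands, the pericentromeric median was 0.07 in place of 0.31 and the arm median -0.11 in place of -0.0049. On that scale the Gypsy median was 0.12 in place of 0.45, the CHG-hyper median 0.05 in place of 0.34 and the CG-hypo median -0.96 in place of -0.80. On it 98 regions were higher and 114 lower. The bands of GC content, distance and uniqueness were set after the values were seen, and the part of GC content in the differences by class, type and position was not tested.

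**Figure D5:**
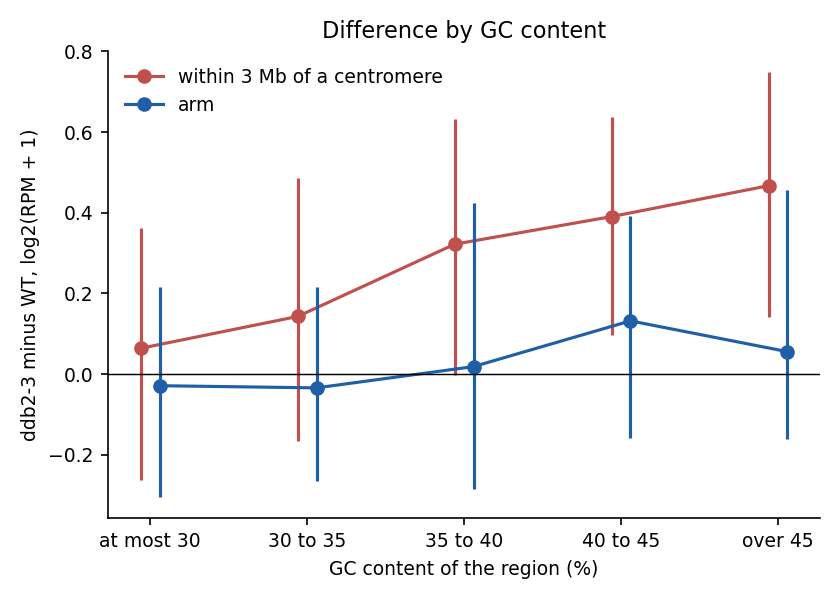
Median (points) and middle 50% of regions (vertical lines) of the difference ddb2-3 minus WT on the log2(RPM + 1) scale by GC content of the region in percent, for regions within 3 Mb of a centromere midpoint (red) and in the arms (blue). Pericentromeric medians run from 0.06 in the band of lowest GC content to 0.47 in the highest, and arm medians lie between -0.03 and 0.13.

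By gene context, regions in coding exons had a summed log2 ratio of 0.32 (0.29 to 0.35) and those upstream of genes -0.05 (-0.05 to -0.04). The 1434 regions in pseudogenes or transposon genes had 0.33 (0.32 to 0.34), and the 1534 other intergenic regions 0.16. The median difference of coding exon regions was 0.15, against 0.17 over all regions. Upstream regions averaged 26.2 RPM in ddb2-3 and 27.0 RPM in WT over 1096 regions, with 18 higher and 33 lower. Their median GC content was 28.0%, and that of coding exons was 42.0%. Introns had 7 higher (6.42%) and 0 lower of 109 regions, near the 5.22% and 1.67% of all regions.

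Genes of the pathways themselves had few regions in their bodies or within 2 kb upstream. Of 28 genes of RNA-directed DNA methylation and methyltransferases 4 had 1 region each, of which 0 were past 2-fold. NRPD1, for the largest subunit of RNA polymerase IV, had 6.11 RPM in ddb2-3 and 5.92 RPM in WT at an ATREP15 Helitron. HEN1, for the methyltransferase that protects small RNAs, had 24.2 RPM in ddb2-3 and 23.3 RPM in WT. SUVH9, for a protein that helps to recruit RNA polymerase V, had 36.7 RPM in ddb2-3 and 49.9 RPM in WT, a ratio of 0.735 (0.624 to 0.865). MET1 had 6 reads in ddb2-3 and 11 reads in WT, a ratio of 0.386 (0.117 to 1.14) whose interval includes 1 at these few reads. Of 16 repair genes, only PHR1, for a photolyase that reverses ultraviolet lesions with light, had regions. These 2 ATMU3N1 regions had 13.7 and 24.9 RPM in ddb2-3, against 16.7 and 31.8 RPM in WT. DDB2 itself, 6 demethylation genes and 14 genes known to respond to DNA methylation had 0 regions.

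The highest levels in ddb2-3 belonged to Helitrons and other DNA transposons, with at most 59.7% of their 24-mers unique, and were mostly below those of WT. ATREP10 (chr5:7833901-7834000), 1965 bp upstream of the MADS-box gene TT16, had 496 RPM in ddb2-3 and 663 RPM in WT, a ratio of 0.748 (0.716 to 0.781). A pair of ATDNAI27T9A regions had 371 and 367 RPM in ddb2-3, against 441 and 418 RPM in WT. ATDNA2T9B had 352 RPM in ddb2-3 and 406 RPM in WT, and a region of AT9MU1 and ATREP8 had 350 RPM in ddb2-3 and 325 RPM in WT. Of these 5 regions only the last was above WT, and relative to the median region it was below.

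Depth differed between the libraries. The RPM steps corresponded to 8345931 normalising reads in ddb2-3, 5913667 in WT and 1376237 in nrpd1a, and the distinct regions held 779644, 505585 and 4160 reads. A single read was worth 0.120 RPM in ddb2-3 and 0.169 RPM in WT, so a region under 1 RPM rested on fewer than 10 reads. Regions without a read numbered 15 in ddb2-3 and 4 in WT, where a count of 0 allows up to 0.359 and 0.507 RPM. In nrpd1a a single read was worth 0.727 RPM, 3454 regions had no read, and a count of 0 allows up to 2.18 RPM.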

How the data were processed

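Small RNA of 24 nt was measured in 1 library each of ddb2-3, WT and nrpd1a seedlings. The deposited value of a region is an RPM level computed by the authors, per the file headers. CASAVA 1.8.2, Bowtie, bedtools and the genome TAIR10 are named in the submitters' processing notes. The RPM denominator, the mismatches allowed, the treatment of reads with several genomic matches and the methylation comparison behind the regions are unstated: they are not given in the labels or headers used here, and reads with several matches can enter several regions.

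In each library 100.0% of the values were whole multiples of 1 RPM step within 0.1 read, which gave reads and a depth. Differences are log2(RPM + 1), ddb2-3 minus WT, for regions that reach 1 RPM in ddb2-3, in WT or in both. Intervals are 95% exact binomial (Clopper-Pearson) intervals on reads, cover counting error only and treat reads as independent molecules. For folds, a library without reads was given a floor of 3 reads. With 1 library per genotype no test between genotypes was made. Gene context, GC content, GA runs and 24-mer uniqueness came from RefSeq's TAIR10.1 sequence and annotation, after 335 of 341 gene names in the files (98.2%) fell within 100 bp of the same gene. Repeat types were assigned from family names, 72 regions of mixed type were left out of the comparison of types, and centromere midpoints are approximate. Overlapping regions are not separate observations.

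Named were the 10 highest and 10 lowest loci, the 2 highest and 2 lowest of each chromosome, the extremes of each repeat type, regions empty in 1 library with at least 10 reads in the other, up to 15 coding exon regions past 2-fold, runs of loci, regions at 4 lists of genes, and the 5 highest levels. Where this gave more names than were used, the first by size are given. The members, lists and rules were chosen with earlier results of these data known. The GA limit, the bands, the printed sequences and the S1 family were chosen after values were seen. Alternatives changed the scaling, pseudocount, filter, overlap, uniqueness, GA repeats, size rule and GC reference. Python 3.11.15, pandas 2.3.3, NumPy 2.4.6, SciPy 1.17.1 and matplotlib 3.10.9 were used, and the calculations were tested on simulated data.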

Additional observations from a re-analysis of the deposited data

How the results depend on the processing

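The summed log2 ratio of 0.13 and the median difference of 0.17 were turned to -0.071 and -0.0079 by scaling to the median region, which left 134 regions higher. The sum was 0.17 without the 1% of regions of highest level, 0.11 without GA repeats and 0.0642 in regions of at least 90% unique 24-mers, where the median was 0.11 and 50 regions were higher. A pseudocount of 0.5 RPM gave 355 higher regions. A pseudocount of 5 RPM gave a median of 0.11, with 32 higher and 19 lower. Regions of at least 10 RPM included 85 higher and 17 lower ones, the 4-fold rule gave 11 and 21, and an exact binomial test on reads with Benjamini-Hochberg adjustment at 0.05, which compares libraries and not genotypes, gave 867 and 315. Relative to GC bands, an alternative chosen after seeing the data, 98 were higher and 114 lower. Where a setting leaves out regions, fewer remain to be counted; for the other settings the cause was not tested. Keeping 1 region of each overlapping set gave 227 higher and 59 lower regions, in place of 234 and 75, and no filter on low values left both counts as they were. These settings moved no count by over 1.5 times. No paired analysis was possible because each genotype has 1 library. Depth limits regions under 1 RPM, which rest on fewer than 10 reads.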
